A study of Homo sapiens with 20 samples.

Results

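The genes described here encode the AP-1 transcription factors, namely the FOS family (FOS, FOSB, FOSL1 and FOSL2), the JUN family (JUN, JUNB and JUND) and ATF3. They were chosen by gene symbol, as 8 of the 60271 genes in the deposited count table, and all 8 passed the filter on low counts along with 16522 genes in total. RNA was sequenced from MDA-MB-468, an epithelial line of triple-negative breast cancer with a high level of EGFR, the receptor of epidermal growth factor (EGF). By the paper's protocol, cells were serum-starved for 24 h before EGF. EGF at 50 ng/mL was then present over 12, 24, 48 or 72 h to induce epithelial-mesenchymal transition (EMT). Control cells were left untreated. Seeding and harvest were shared by all groups, so that they differed in the time of EGF addition. The serum-starved state applies to the control cells too. With a shared harvest, the serum-free time before EGF may have been longer at the shorter EGF times. This is not given in the sources used here, and serum-free time before EGF and time in EGF cannot be told apart. Each of the 5 groups had 4 biological replicates, which gives 20 libraries, and all cells belong to this single line.

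AP-1 is a dimer of basic leucine zipper (bZIP) proteins. JUN proteins pair with each other or with a FOS protein, whereas FOS proteins need a partner such as JUN, and ATF3 can pair with JUN proteins or with itself. The dimers bind the TRE, with the letters TGANTCA, or the cAMP response element (CRE), with the letters TGACGTCA. Downstream of EGFR, the MAP kinases ERK and JNK act on some of these genes through SRF and its TCF partners, and on the proteins by phosphorylation. FOS, FOSB and JUN are known as immediate early genes with a short burst after a stimulus, while FOSL1 is known to be induced later and to drive migration and invasion genes in breast cancer cells. The earliest time sampled here was 12 h, and the first hours of the response were not measured.

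The total count per library was between 15611961 and 25856953. Mitochondrial genes held a mean of 10.9% of the counts in control (9.03 to 12.6% over libraries), 9.41% at 12 h (7.69 to 11.3%) and 15% at 72 h (12.3 to 16.4%). The part of this in the results was not tested. Every library was nearer to its own group than to any other, which does not show that none stood apart within its group. The markers EGFR, EPCAM, KRT5, KRT8, KRT18, KRT19, CDH1 and CLDN4 were present throughout, with the lowest at 40.8 CPM (counts scaled to a common library total after TMM normalization) in any library. Summed over each list, fibroblast markers reached at most 15.5 CPM, endothelial markers 6.16 CPM and leukocyte markers 33.7 CPM. PTPRC, the common leukocyte antigen, had at most 8 counts in a library. CD68, a lysosomal protein of macrophages, was at 1.15 ± 0.331 CPM in control and had risen to 26.7 ± 2.13 CPM by 72 h (SD, n = 4 each), which is 4.51 ± 0.14 (SE) on the log2 scale with an adjusted p of 2.94e-18.

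The genes lie on 5 chromosomes of GRCh38. In the GENCODE 29 annotation, FOS (chr14:75278774-75282230, plus strand, 3 merged exons) and FOSB (chr19:45467995-45475179, plus strand, 3 merged exons) are followed by FOSL1 (chr11:65892049-65900573, minus strand, 4 merged exons) and FOSL2 (chr2:28392448-28417312, plus strand, 7 merged exons). JUN (chr1:58780788-58784327, minus strand), JUNB (chr19:12791496-12793315, plus strand) and JUND (chr19:18279760-18281622, minus strand) each have 1 exon and no intron. ATF3 (chr1:212565334-212620777, plus strand) has 5 merged exons. HOOK2, on the opposite strand, shares 259 bases or 14.2% of the exon bases of JUNB. Whether the counting used strand is not given in the sources used here, so reads in that stretch could not be assigned to either gene.

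AP-1 and CREB dimers are known to act on the promoters of some of these same genes, which is why their promoter stretches are shown. RefSeq promoter windows (GRCh38.p14, the 250 bases before the listed start, both strands searched) were at hand for 7 of the 8 genes, and FOSL1 had none. The letters TGACGT occurred in 4 of the 7 windows, against 7.1% of 35116 promoters, and TGACNTCA in 2 of the 7, against 6.87%. Both of these letter sets were chosen after the windows had been read, and both overlap the full CRE, so the shares are descriptions only. The full CRE was found in JUND alone among the 7, against 1.65% of promoters. The TRE (6.57% of promoters) and the CArG box of SRF (1.16%) were found in none of the 7, and JUNB and ATF3 held none of the 5 motifs. Bases beyond the window were not searched, so a gene may hold these motifs further upstream. In the stretches of 30 bases below, read 5′ to 3′ on the strand of the gene, capitals mark the motif.
FOS, chr14:75278752-75278781, plus strand, motif from -64 to -59: tggttgagcccgTGACGTttacactcattc
FOSB, chr19:45467924-45467953, plus strand, motif from -60 to -55: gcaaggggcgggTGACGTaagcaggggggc
FOSL2, chr2:28392780-28392809, plus strand, motif from -66 to -61: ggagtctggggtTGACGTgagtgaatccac
JUN, chr1:58784096-58784125, minus strand, motif from -67 to -60: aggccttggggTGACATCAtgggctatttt
JUND, chr19:18281804-18281833, minus strand, full CRE from -200 to -193: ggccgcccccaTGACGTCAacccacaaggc
JUND, chr19:18281692-18281721, minus strand, TGACGT on the other strand from -87 to -82: tgcaaatgagcgACGTCAcccgcacccaat
The motifs of FOS, FOSB, FOSL2 and JUN all began between 60 and 67 bases before the start listed by RefSeq. That start is not always the outer end of the gene in GENCODE 29. By the GENCODE coordinates above, the JUN stretch lies within its exon and the FOSL2 stretch within the gene. For these genes the stretch is upstream of the listed start only, and the like spacing is a description. A match of letters is not a measured binding site, and binding was not measured in these samples.

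The question for each time point was how the transcripts of AP-1 changed under EGF, the treatment used to induce EMT. At 12 h, FOSL1, FOSB, JUNB, FOS, FOSL2 and JUND were all higher than in control. At 24 h, FOS, FOSB, FOSL1 and FOSL2 were higher while JUN and JUND were lower. At 48 h, FOSB, FOSL1 and ATF3 were higher while FOS and JUND were lower. At 72 h all genes but JUND were higher, with FOSB, JUN and ATF3 at their highest means. Called here means an adjusted p under 0.05 in edgeR's quasi-likelihood test over all genes tested. Where a call is given with 3 of 4 libraries, this is the number of EGF libraries outside the range of control. In these bulk samples, a change of RNA per cell and a change in how many cells express a gene cannot be told apart.

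The counts of called genes have to be read against a broad response. At 12 h, 6 of the 8 AP-1 genes were called, all higher, when 69.4% of all genes tested were called in either direction and 32.9% were called higher. At 24 h, 6 were called, of which 4 were higher and 2 lower, against 58.8% in either direction, 29.2% higher and 29.6% lower. At 48 h, 5 were called, of which 3 were higher and 2 lower, against 45.8% in either direction, 24.0% higher and 21.8% lower. At 72 h, 7 were called, all higher, against 61.6% in either direction, 30.6% higher and 31.0% lower. With 8 genes, no more is read from these counts. For the 4 times in turn, the 8 genes had a median log2 fold change of 0.65, 0.29, 0.24 and 0.73, where the median over all genes tested was -0.054, -0.0071, 0.0099 and -0.0090. EGF and control libraries did not overlap for 6, 3, 3 and 6 of the 8 at the 4 times in turn, against 60.8%, 48.2%, 34.9% and 52.0% of all genes. All 4 times were compared with the same 4 control libraries.

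Only FOSB and FOSL1 of the 8 were called higher at all 4 times, as were 11.2% of all genes, and FOS, JUN and JUND were called in both directions, as were 13.0% of all genes. Each of the 8 was called at 1 or more of the times, as were 89.8% of all genes. The plot of expression by library shows a high level at 12 h in FOSL1 and JUNB, a low level at 48 h in FOS, and a high level at 72 h in FOSB, JUN and ATF3.

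**Figure D1:**
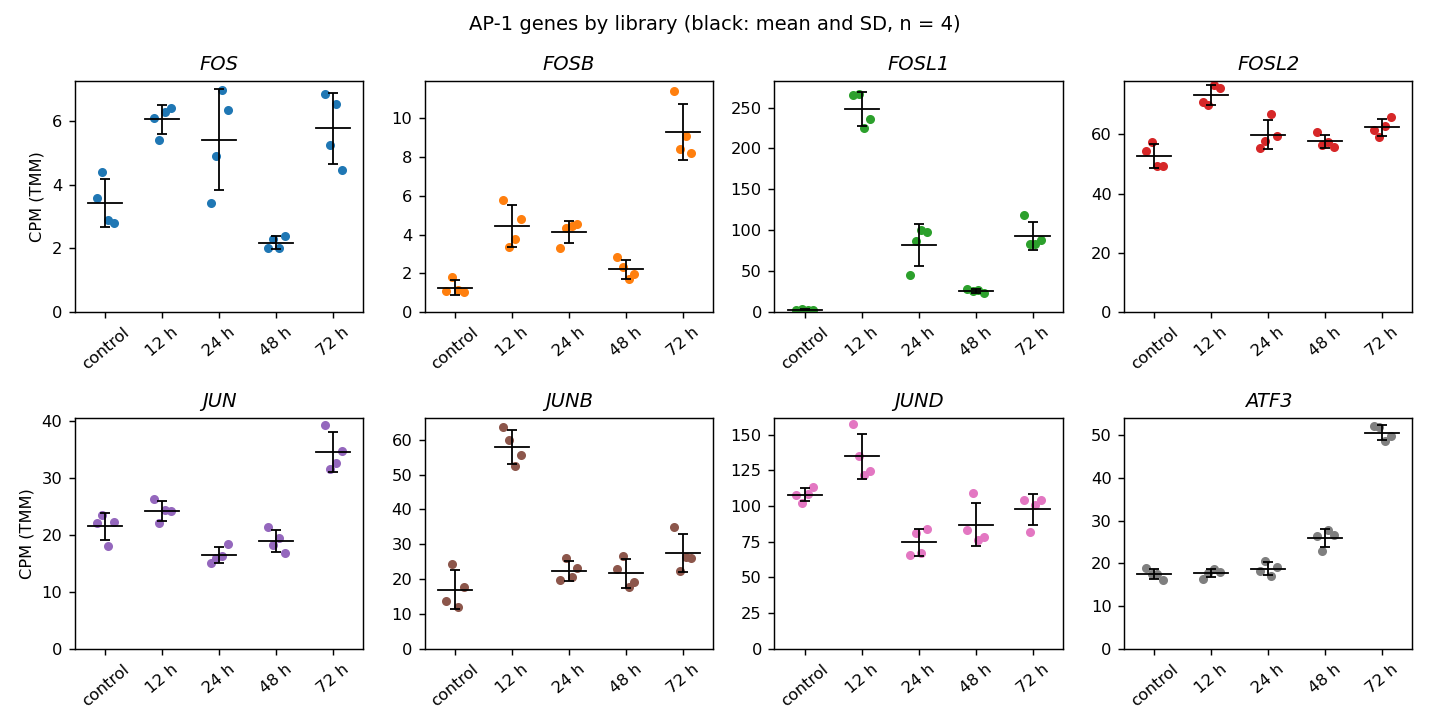
Expression of the 8 AP-1 genes in each library, in CPM after TMM normalization on linear axes from 0, for control and the 4 EGF times. Each dot is a library and black lines are the mean with SD (n = 4). FOSL1 ranged from 2.31 to 266 CPM, and the 4 ATF3 values at 72 h, from 48.7 to 52.1 CPM, lay above all others.

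FOSL1 (ENSG00000175592), also called FRA1, had the widest range of the 8. In control, replicates 1 to 4 held 2.31, 3.87, 2.35 and 2.6 CPM. With EGF they held 266, 266, 225 and 236 CPM at 12 h, and 44.6, 86.8, 99.8 and 97.2 CPM at 24 h. The values were 27.5, 25, 26.8 and 23.2 CPM at 48 h, and 119, 83.6, 82.9 and 88.3 CPM at 72 h. Every EGF library exceeded every control library, and the 12 h libraries stood above all others. Compared to control, FOSL1 at 12 h was 88.5-fold higher (log2 fold change 6.47 ± 0.25 SE, adjusted p = 7.7e-14). The 24 h libraries were 29.2-fold above control (4.87 ± 0.25, adjusted p = 5.41e-12), those of 48 h 9.14-fold (3.19 ± 0.25, adjusted p = 6.14e-09) and those of 72 h 33.3-fold (5.06 ± 0.25, adjusted p = 2.56e-12). The means thus ran from control over 48, 24 and 72 h to 12 h, and of the neighbours in this order, 24 and 72 h did not differ beyond the spread (adjusted p = 0.446). Counts were between 46 and 5259. The difference between its highest and lowest group mean on the log2 scale was larger than that of 99.76% of the genes compared.

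FOSB (ENSG00000125740) is a FOS protein with a transactivation domain, and was the lowest of the 8 per length in control. The control libraries held 1.11, 1.81, 1.11 and 1.01 CPM. The EGF libraries held 5.81, 3.38, 3.76 and 4.78 CPM at 12 h, and 3.31, 4.35, 4.42 and 4.54 CPM at 24 h. At 48 h the values were 2.83, 2.3, 1.71 and 1.95 CPM, and at 72 h they were 11.4, 8.42, 9.1 and 8.24 CPM. At 12, 24 and 72 h all 4 libraries were above all controls, whereas at 48 h replicate 3 was below control replicate 2. After 12 h FOSB was 3.49-fold higher (log2 fold change 1.81 ± 0.21 SE, adjusted p = 5.98e-08) and 3.26-fold at 24 h (1.71 ± 0.21, adjusted p = 2.89e-07). The rise was 1.71-fold by 48 h (0.77 ± 0.22, adjusted p = 0.00672) and 7.33-fold by 72 h (2.87 ± 0.20, adjusted p = 1.49e-11). With factors per gene taken from the deposited normalized values, the call at 48 h was lost (0.41, adjusted p = 0.231). The order of means was control, 48, 24, 12 and 72 h, and 12 and 24 h did not differ beyond the spread (adjusted p = 0.679). Counts were between 21 and 296, so that a library's value rests on few reads.

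FOS (ENSG00000170345), the founding member of the family, stayed low. Control libraries held 3.57, 4.41, 2.9 and 2.79 CPM, and those at 12 h held 6.11, 5.39, 6.3 and 6.41 CPM. The values were 3.41, 4.92, 6.99 and 6.34 CPM at 24 h, 1.99, 2.3, 2.01 and 2.4 CPM at 48 h, and 6.86, 5.23, 6.53 and 4.47 CPM at 72 h. The 4 libraries at 48 h were below all other libraries, and those at 12 and 72 h were above all controls. After 12 h FOS was 1.77-fold higher (log2 fold change 0.82 ± 0.19 SE, adjusted p = 0.000417), 1.57-fold at 24 h (0.65 ± 0.19, adjusted p = 0.00463, higher in 3 of 4 libraries) and 1.70-fold at 72 h (0.76 ± 0.19, adjusted p = 0.0011). At 48 h it fell by 0.65 ± 0.20 on the log2 scale (adjusted p = 0.0106). The calls at 24 and 48 h were lost with factors per gene from the normalized values (adjusted p = 0.0977 and 0.665), where the value at 48 h was -0.21. Between 12, 24 and 72 h the differences did not pass the test (adjusted p from 0.453 to 0.787). Counts were between 36 and 178.

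FOSL2 (ENSG00000075426), also called FRA2, was the steadiest of the 8. Control libraries held 54.3, 57.5, 49.3 and 49.2 CPM, and those at 12 h held 71.1, 69.9, 76.6 and 75.7 CPM. The values were 55.5, 57.7, 66.8 and 59.5 CPM at 24 h, 60.7, 56.5, 57.3 and 55.8 CPM at 48 h, and 61.6, 59.2, 62.7 and 65.9 CPM at 72 h. The 12 h libraries lay above all others, and those of 24 and 48 h overlapped with control. After 12 h FOSL2 was 1.39-fold higher (log2 fold change 0.48 ± 0.069 SE, adjusted p = 1.38e-06) and 1.18-fold at 72 h (0.24 ± 0.069, adjusted p = 0.0037). At 24 h it was 1.14-fold higher (0.19 ± 0.069, adjusted p = 0.0238, 3 of 4 libraries). This call did not hold with library size alone (adjusted p = 0.636) or without control replicate 3 or 4 or EGF 24 h replicate 3 (0.0682, 0.0787 and 0.105). It was also lost with upper quartiles (0.0969) and factors per gene from the normalized values (0.143). The same held with no filter beyond 1 count (0.0812) and with only the 8 libraries compared (0.0986). The value at 48 h was 0.13 ± 0.069 (adjusted p = 0.125), and passed without control replicate 2 (0.18, adjusted p = 0.0421). It also passed with at least 10 counts in every library (0.17, adjusted p = 0.0426). With factors per gene from the normalized values, the 72 h call was lost (0.19, adjusted p = 0.0636). The order was control, 48, 24, 72 and 12 h, in which only the step from 72 to 12 h passed the test (adjusted p = 0.00437, or 0.768 with library size alone).

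**Figure D2:**
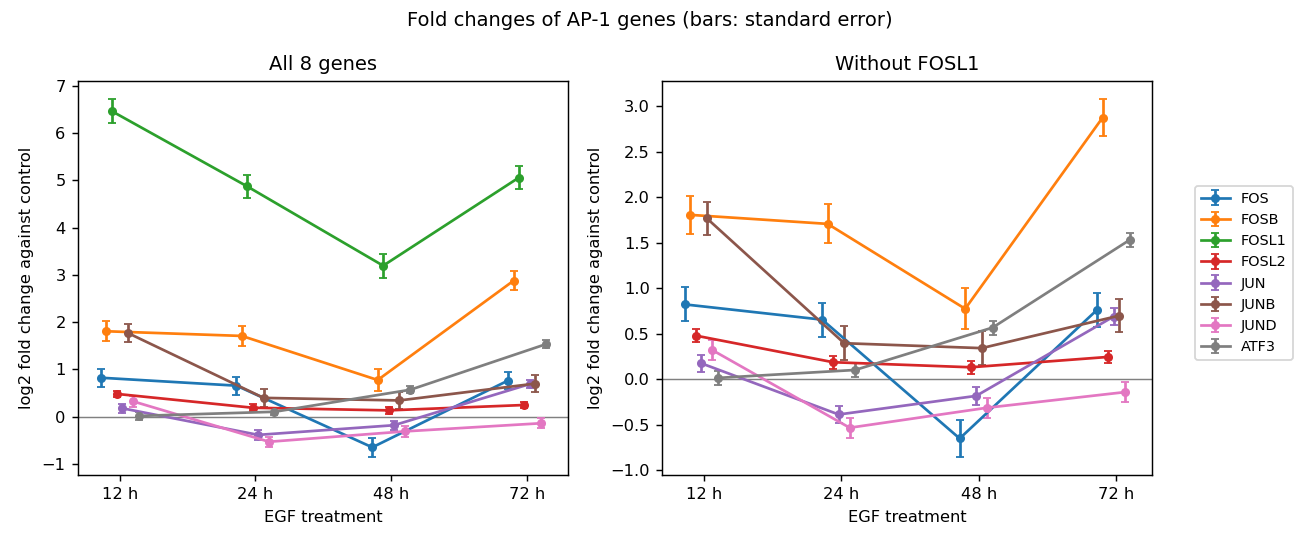
Log2 fold change against control of each AP-1 gene at 12, 24, 48 and 72 h after EGF addition, from the edgeR model of 20 libraries, with SE as bars. All 8 genes are on the left and 7 on the right, without FOSL1, whose values ran from 3.19 to 6.47. FOSB, FOS and FOSL1 were lowest at 48 h, whereas ATF3 had 0.014 at 12 h and 1.53 at 72 h.

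Among the JUN family, JUNB (ENSG00000171223), a weaker activator than JUN that can restrain it, had the clearest early rise. Control libraries held 13.7, 24.4, 12 and 17.8 CPM, and those at 12 h held 63.7, 59.9, 52.5 and 55.6 CPM. At 24 h the values were 19.8, 26.1, 20.5 and 23.1 CPM, at 48 h 22.9, 26.7, 17.7 and 19.1 CPM, and at 72 h 35, 22.4, 26.3 and 26.1 CPM. The 12 h libraries were above all others, while control replicate 2 lay within the range of the later times. After 12 h JUNB was 3.41-fold higher (log2 fold change 1.77 ± 0.18 SE, adjusted p = 2.99e-08) and 1.62-fold at 72 h (0.70 ± 0.18, adjusted p = 0.00247, higher in 3 of 4 libraries). The values of 0.40 ± 0.18 at 24 h and 0.34 ± 0.18 at 48 h did not pass (adjusted p = 0.072 and 0.136). Without control replicate 2, both passed, with 0.63 (adjusted p = 0.00245) and 0.57 (adjusted p = 0.00635). In the order control, 48, 24, 72 and 12 h, only the step from 72 to 12 h passed the test (adjusted p = 2.17e-05).

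JUN (ENSG00000177606), the main JNK substrate of the family, had its largest difference from control at 72 h. Control libraries held 22.1, 23.4, 18.1 and 22.3 CPM, and those at 12 h held 26.3, 22, 24.4 and 24.1 CPM. They held 15.1, 15.9, 16.2 and 18.3 CPM at 24 h, 21.3, 18.2, 19.4 and 16.7 CPM at 48 h, and 39.3, 31.5, 32.6 and 34.6 CPM at 72 h. All 72 h libraries were above all others. At 72 h JUN was 1.61-fold above control (log2 fold change 0.69 ± 0.095 SE, adjusted p = 1.05e-06), and at 24 h it fell by 0.39 ± 0.098 on the log2 scale (adjusted p = 0.00155, lower in 3 of 4 libraries). The values at 12 h (0.18 ± 0.096, adjusted p = 0.107) and 48 h (-0.18 ± 0.096, adjusted p = 0.123) did not pass, although at 48 h it passed without control replicate 3 (-0.26, adjusted p = 0.0292). In the order 24, 48 h, control, 12 and 72 h, only the step from 12 to 72 h passed the test (adjusted p = 4.66e-05).

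JUND (ENSG00000130522) is known as the JUN protein that is present in resting cells, and here it had the highest level per length of the 8 in control. Control libraries held 107, 102, 108 and 113 CPM, and those at 12 h held 157, 135, 122 and 125 CPM. The values were 65.5, 81.1, 67.3 and 83.9 CPM at 24 h, 83.3, 109, 76.3 and 78.5 CPM at 48 h, and 104, 81.5, 101 and 104 CPM at 72 h. The 12 h libraries were above all controls and those of 24 h below, whereas control overlapped with 48 and 72 h. JUND fell by 0.53 ± 0.11 on the log2 scale at 24 h (adjusted p = 0.000208) and by 0.31 ± 0.11 at 48 h (adjusted p = 0.0215, lower in 3 of 4 libraries). At 12 h it was 1.25-fold higher (0.32 ± 0.11, adjusted p = 0.0115), but with library size alone, which moved the median of all genes by -0.284, the value was 0.035 (adjusted p = 0.77). Without EGF 12 h replicate 1 it was 0.24 (adjusted p = 0.0613), and with upper quartiles 0.16 (adjusted p = 0.218). The call at 48 h was lost without control replicate 4 or without EGF 48 h replicate 1, 3 or 4 (adjusted p from 0.0559 to 0.0772). It was lost too with only the 8 libraries compared (adjusted p = 0.0541). The value at 72 h was -0.14 ± 0.11 (adjusted p = 0.266). In the order 24, 48, 72 h, control and 12 h, only the step from control to 12 h passed.

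ATF3 (ENSG00000162772), a stress-induced bZIP protein that can repress as well as activate, rose late. Control libraries held 19, 17.4, 17.5 and 16.1 CPM, and those at 12 h held 16.4, 17.7, 18.6 and 18 CPM. The values were 18.2, 20.6, 17.1 and 19.1 CPM at 24 h, 26.5, 22.8, 27.7 and 26.6 CPM at 48 h, and 52.1, 51.9, 48.7 and 49.8 CPM at 72 h. Control, 12 and 24 h overlapped, the 48 h libraries lay above these, and those at 72 h lay above all others. After 48 h ATF3 was 1.48-fold higher (log2 fold change 0.57 ± 0.077 SE, adjusted p = 1.89e-06) and 2.89-fold at 72 h (1.53 ± 0.077, adjusted p = 2.11e-14). The values at 12 h (0.014 ± 0.079, adjusted p = 0.888) and 24 h (0.10 ± 0.079, adjusted p = 0.279) did not pass. With library size alone, the value at 12 h was -0.27 (adjusted p = 0.00553). Of the steps in the order control, 12, 24, 48 and 72 h, only those to 48 and to 72 h passed the test, though that from 12 to 24 h (0.087, adjusted p = 0.366) did with library size alone (0.23, adjusted p = 0.0244) or upper quartiles (0.20, adjusted p = 0.0264).

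Consecutive time points were compared next, to see when each gene changed. From 12 to 24 h, 5 of the 8 were called, all lower, against 53.7% of all genes in either direction and 25.9% lower. FOSL1 fell by 1.60 ± 0.19 on the log2 scale (adjusted p = 1.28e-06), JUNB by 1.37 ± 0.18 (2.49e-06) and JUND by 0.85 ± 0.11 (8.25e-07). JUN fell by 0.56 ± 0.098 (4.17e-05) and FOSL2 by 0.29 ± 0.069 (0.001), the latter not with library size alone (-0.15, adjusted p = 0.0803). All 3 JUN genes were thus lower at 24 than at 12 h, as were FOSL1 and FOSL2.

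From 24 to 48 h, 4 were called, against 50.2% of all genes in either direction, with 3 lower (24.3% of all genes) and 1 higher (25.9%). FOSL1 fell by 1.68 ± 0.20 (adjusted p = 1.39e-06), FOS by 1.31 ± 0.20 (8.55e-06) and FOSB by 0.93 ± 0.20 (0.000465), while ATF3 rose by 0.47 ± 0.077 (2.75e-05). JUN and JUND had values of 0.20 ± 0.098 and 0.22 ± 0.11 that did not pass (adjusted p = 0.0883 and 0.1). Both passed with library size alone (0.36 and 0.37, adjusted p = 0.00375 and 0.00446) and with upper quartiles (0.27 and 0.29, adjusted p = 0.0317 and 0.0415). JUN also passed without EGF 24 h replicate 4 or EGF 48 h replicate 4 (0.26 in both, adjusted p = 0.048 and 0.0448). With at least 10 counts in every library, JUN passed too (0.24, adjusted p = 0.0424).

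From 48 to 72 h, 5 were called, all higher, against 35.7% of all genes in either direction and 17.9% higher. FOSB rose 4.29-fold (log2 fold change 2.10 ± 0.19 SE, adjusted p = 9.22e-09), FOSL1 3.65-fold (1.87 ± 0.20, 6.93e-07) and FOS 2.67-fold (1.41 ± 0.20, 4.82e-06). ATF3 rose 1.95-fold (0.97 ± 0.075, 6.91e-10) and JUN 1.83-fold (0.87 ± 0.095, 1.63e-07). From 12 to 24 h and from 48 to 72 h, the libraries of the 2 times did not overlap in 5 of the 8 genes, those called. From 24 to 48 h this held for 4 of the 8, again those called. For the steps to 24, 48 and 72 h in turn, the share of all genes without overlap was 53.5, 44.6 and 35.1%. In each of the 5 genes called at 72 h the 4 libraries at 72 h were above the 4 at 48 h. FOSL2, JUNB and JUND had values of 0.11, 0.36 and 0.17 that did not pass, though JUND did without EGF 48 h replicate 2 (0.30, adjusted p = 0.0239). Beside the 5, the share of mitochondrial counts had a mean of 12.5% at 48 h (9.83 to 16.9% over libraries) and 15% at 72 h (12.3 to 16.4%). The libraries of the 2 times thus overlapped in this share, and its part was not tested.

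The first and the last EGF times also differed. Of the 8 genes, 7 were called between 12 and 72 h, all 7 without overlap, against 67.6% of all genes called and 66.7% without overlap, with 3 higher (35.6% of all genes) and 4 lower (32.0%) at 72 h. ATF3 was higher by 1.52 ± 0.077, FOSB by 1.07 ± 0.18 and JUN by 0.51 ± 0.095 (adjusted p = 6.27e-14, 1.42e-05 and 4.66e-05). FOSL1 was lower with -1.41 ± 0.19, JUNB with -1.07 ± 0.18, JUND with -0.46 ± 0.11 and FOSL2 with -0.23 ± 0.069 (adjusted p = 2.55e-06, 2.17e-05, 0.000666 and 0.00437). The FOSL2 call was lost with library size alone (adjusted p = 0.768) and upper quartiles (0.241). It was lost too with factors per gene (0.0543) and at least 10 counts in every library (0.0625). FOS had -0.059 ± 0.18 (adjusted p = 0.787). Between 12 and 48 h, all 8 genes were called and none overlapped, with ATF3 higher and the other 7 lower at 48 h, against 70.3% of genes called in either direction, 37.7% higher, 32.5% lower and 65.0% without overlap. With library size alone, the calls of JUN (-0.060, adjusted p = 0.582) and FOSL2 (-0.051, adjusted p = 0.53) were lost, and with upper quartiles that of JUN (-0.18, adjusted p = 0.117). Between 24 and 72 h, FOSB, JUN, JUND and ATF3 were called, all higher at 72 h. Libraries did not overlap in 3 of the 8 genes, namely FOSB, JUN and ATF3. Of all genes, 40.2% were called in either direction, 20.6% higher and 19.7% lower, and 41.1% were without overlap. FOSB, JUN and ATF3 were thus higher at 72 h than at each other time.

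To compare levels between the genes, CPM were divided by the length of the merged exons in kb. Summed over the 8 genes, the control level was 87.7 ± 3.52 CPM per kb (SD, n = 4), and after EGF it was 260 ± 21.0, 116 ± 19.0, 92.9 ± 9.74 and 151 ± 17.3 in time order. In control, JUND made up 66.1% ± 4.03 of this sum and FOSL1 1.67% ± 0.389. At 12 h, FOSL1 held 50.6% ± 1.27 and JUND 27.8% ± 1.27. In the libraries of 24, 48 and 72 h, FOSL1 then held 36.8% ± 7.11, 14.7% ± 1.71 and 32.5% ± 2.62, when JUND held 34.9% ± 4.19, 49.9% ± 3.56 and 34.7% ± 2.66. At 24 and 72 h the shares of both genes were thus within each other's SD.

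The 4 FOS family genes together held 11.5% in control (10.3 to 12.9% over libraries) and 55.6% at 12 h (54.0 to 56.9%). They held 46.2% at 24 h (37.6 to 53.7%), 24.6% at 48 h (21.0 to 26.8%) and 40.6% at 72 h (38.5 to 43.2%). No EGF library overlapped with control in this share. The JUN family held 83.5% in control and 42.7, 49.7, 68.4 and 51.0% at 12, 24, 48 and 72 h. Of the JUN genes, JUNB kept a mean share between 9.90 and 12.7% in all groups. FOS and FOSB each held at most 1.43% on average in any group. ATF3 held 4.95% ± 0.464 in control and 8.35% ± 0.931 at 72 h. When the longest transcript was used as length, it held 8.96% in control and 14.1% at 72 h. These are shares of RNA, and neither protein nor phosphorylation was measured.

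**Figure D3:**
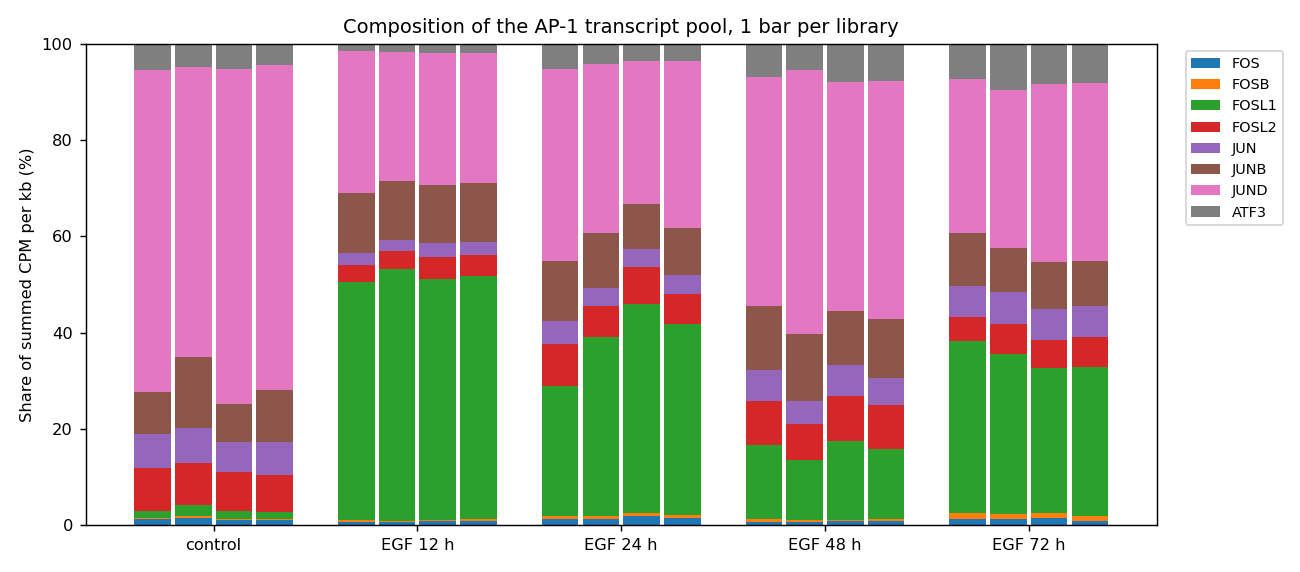
Share of each AP-1 gene in the summed CPM per kb of the 8 genes, in percent, with 1 bar for each of the 20 libraries in 5 groups. JUND (pink) held 66.1% on average in control, and FOSL1 (green) 1.67% in control and 50.6% at 12 h.

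Genes commonly cited as targets of AP-1 were looked at next, from a list of 25. Of the 19 that passed the filter, 18, 19, 17 and 18 were called higher at 12, 24, 48 and 72 h, and none lower, beside 32.9, 29.2, 24.0 and 30.6% of all genes called higher. At all 4 times, 16 were higher. In time order, their median log2 fold change was 1.86, 1.66, 1.17 and 2.45, beside all-gene medians of -0.054 to 0.0099, or 1.72, 1.47, 1.17 and 2.45 with MMP1 set at its bound. MMP1, an interstitial collagenase, had no count in control, and its 72 h level was at least 16.2-fold higher (27 to 73 counts, against a floor of 3 counts per library). At 24 h it was at least 2.43-fold higher, but at 12 and 48 h, with 1 to 4 counts in a library, it was at or under the floor, although the model called it higher at all 4 times. MMP1 is named outside the rule, as are the exceptions, namely IVL at 12 h (0.11), CCND1 at 48 h (0.03) and TGFB1 at 48 h (0.16) and 72 h (0.04). The neutrophil attractant CXCL8 was at 1.57 ± 0.461 CPM in control and rose to 675 ± 24.5 CPM by 12 h (log2 fold change 8.73 ± 0.43 SE, adjusted p = 1.63e-11). F3, the tissue factor that starts coagulation, rose from 30.9 ± 1.46 to 914 ± 44.1 CPM (4.89 ± 0.26, adjusted p = 2.65e-11). The other 6 (MMP3, MMP9, MMP10, MMP13, IL6 and SPP1) had too few counts to be tested. The list was drawn up with results of these data known, so that its direction is a description.

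Of 30 other bZIP genes, which include partners and competitors of AP-1, 28 were tested. Higher and lower were 16 and 5, 12 and 11, 11 and 7, and 11 and 10 in time order, so that 75, 82.1, 64.3 and 75% were called, beside 69.4, 58.8, 45.8 and 61.6% of all genes. Among those called higher was BATF2, named outside the rule, which had no count in control and at most 30 counts in a library. Their median log2 fold changes of 0.27, -0.0090, -0.036 and -0.088 were nearer 0 than those of the targets. MAFF, a small MAF protein without a transactivation domain, rose from 3.22 ± 0.567 to 17.8 ± 2.09 CPM at 12 h (2.47 ± 0.16, adjusted p = 2.78e-12). BATF3, which pairs with JUN, rose from 0.50 ± 0.248 to 2.69 ± 0.662 CPM at 12 h (2.43 ± 0.35, adjusted p = 1.14e-06), from few counts. BATF, another JUN partner, was lower at 24 h, with 7.22 ± 0.567 CPM in control and 1.32 ± 0.601 CPM after EGF (-2.41 ± 0.20, adjusted p = 3.16e-10). MAF and CREB5 were not tested.

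In a list around the MAP kinases and SRF, all 30 genes were tested. It held MAP kinases and their kinases, the kinases RPS6KA1 to RPS6KA5, SRF with its TCF partners, and MEF2A, MEF2C and MEF2D. Higher and lower were 20 and 5, 12 and 6, 10 and 4, and 9 and 5 in time order, so that 83.3, 60, 46.7 and 46.7% were called, beside 69.4, 58.8, 45.8 and 61.6% of all genes, with medians of 0.41, 0.14, 0.059 and 0.0069. ELK3, a TCF partner of SRF, rose from 7.58 ± 0.556 CPM in control to 145 ± 1.71 CPM at 12 h (4.26 ± 0.13, adjusted p = 1.83e-18). MAP2K3, a kinase of p38, rose from 27.6 ± 6.0 to 82.3 ± 2.30 CPM (1.58 ± 0.11, adjusted p = 5.35e-12). MEF2C, a MADS-box factor, was lower, with 5.63 ± 0.863 CPM in control and 0.840 ± 0.324 CPM at 12 h (-2.75 ± 0.24, adjusted p = 4.35e-10).

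Of 14 genes linked to the repression of AP-1 or to the turnover of its proteins or transcripts, 6 were higher and 3 lower at 12 h. All 14 were tested, and their products need not act in the same direction on AP-1. The counts were 7 and 3 at 24 h, 4 and 3 at 48 h, and 5 and 5 at 72 h, so that 64.3, 71.4, 50 and 71.4% were called, beside 69.4, 58.8, 45.8 and 61.6% of all genes, with medians of 0.079, 0.25, -0.0052 and -0.086. ZFP36 and ZFP36L2 encode proteins that bind AU-rich elements and promote decay of transcripts. ZFP36 rose from 33.9 ± 5.46 to 138 ± 3.40 CPM at 12 h (2.02 ± 0.11, adjusted p = 1.2e-13), and ZFP36L2 from 190 ± 18.1 to 1215 ± 12.2 CPM (2.67 ± 0.13, adjusted p = 2.81e-14). TSC22D3, a glucocorticoid-induced protein that binds AP-1 subunits, was lower, with 170 ± 7.94 CPM in control and 29.1 ± 1.34 CPM at 12 h (-2.54 ± 0.14, adjusted p = 3.23e-13). As these 4 lists were chosen with results known, no test of a list was run.

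**Figure D4:**
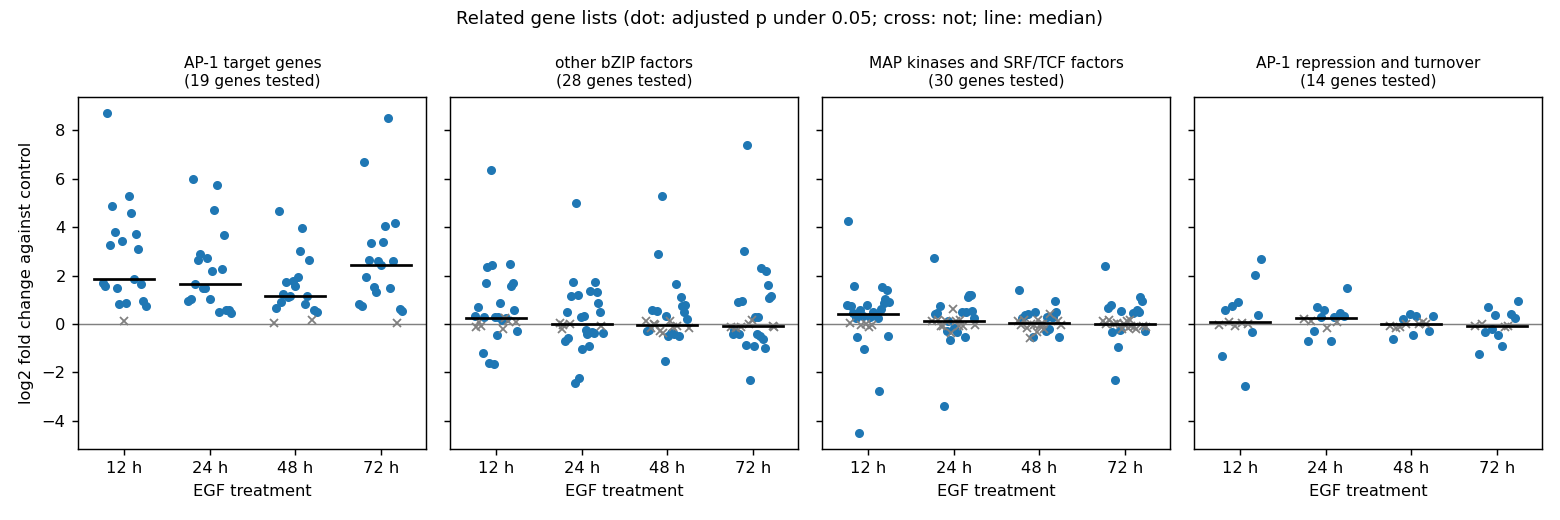
Log2 fold change against control at 12, 24, 48 and 72 h after EGF addition for the tested genes of 4 lists around AP-1. Dots passed an adjusted p under 0.05 and crosses did not, and the line is the median; MMP1 and BATF2 had no count in control and are drawn at fitted values that depend on the prior count. Of the 19 AP-1 target genes, 18 were called higher at 12 h, and none was called lower at any time.

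Epithelial markers rose at 12 h beside FOSL1 and JUNB, as a measured fact whose part in the AP-1 values was not tested. Their summed level was 5052 to 5538 CPM in control and 19800 to 20654 CPM at 12 h. At 12 h, 8 of 8 were called higher, beside 32.9% of all genes. KRT5 was 6.55-fold, KRT18 6.52-fold and KRT8 4.99-fold higher at 12 h. At 24 h, 5 were called higher and 1 lower, beside 29.2 and 29.6% of all genes. At 48 h EGFR was called higher and EPCAM and CDH1 lower, beside 24.0% of all genes higher and 21.8% lower. At 72 h the sum was 8131 to 8884 CPM, with 4 of the 8 called higher and EPCAM and CDH1 lower. The shares of all genes at 72 h were 30.6% higher and 31.0% lower. Of the markers of other cells that could be tested, COL1A1 rose from 6.18 ± 1.39 to 13.9 ± 0.898 CPM at 72 h (1.17 ± 0.14, adjusted p = 8.09e-08), while COL1A2, COL3A1 and LUM had at most 1 count in a library. At 12 h, the leukocyte marker CD14 was lower (-1.42 ± 0.19, adjusted p = 6.66e-07), whereas CD68 and ITGAM, the other leukocyte markers tested, were higher (3.80 ± 0.14 and 1.89 ± 0.42, adjusted p = 1.07e-16 and 0.00025), and all 3 were higher at 48 and 72 h. Also lower at 12 h was the endothelial marker PECAM1 (-2.59 ± 0.29, adjusted p = 2.47e-08), while KDR was higher (0.97 ± 0.28, adjusted p = 0.00403), and none of these 5 genes had a mean over 3 CPM in control.

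Last, genes with a like time course were sought, by the root mean square difference between the 5 group means of log2 CPM, each centred on its own mean, over 13880 genes with at least 1 CPM on average. For FOSL1 these were KRTAP2-3 (0.12), a hair keratin-associated protein, and RAET1L (0.22), a ligand of the receptor NKG2D. For FOSB they were ITGA1 (0.19), the integrin chain of a collagen receptor, and RASSF6 (0.21). For FOS they were PSMC1P1 (0.15), a pseudogene listed at 0 in 12 of 20 libraries and therefore uncertain, and STX2 (0.16), a syntaxin. For FOSL2 they were PPP5C (0.016), a phosphatase, and NUP42 (0.025), a nucleoporin. For JUNB they were RELB (0.082), an NF-kappaB subunit, and UGCG (0.11), the glucosylceramide synthase. For JUN they were SELENOK (0.11) and the ubiquitin-like ISG15 (0.13). For JUND they were KLHL25 (0.054) and ARHGAP23 (0.064). For ATF3 they were CC2D2A (0.079), a protein of the ciliary transition zone, and OASL (0.12). A steady gene such as FOSL2 finds near neighbours easily, so the differences are not comparable between genes, and 5 group means are few points.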

How the data were processed

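Expression was measured by RNA-seq in 20 samples (Lexogen Corall mRNA protocol, single-end). The authors deposited whole-number counts for 60271 genes per library, on hg38 per the submitters' processing notes; the aligner, the counting and its annotation are not given in the sources used here. Beside each count they deposited a normalized value, treated here as a score, since the factor between it and the count is not the same for all genes of a library. It served for 1 alternative only. The authors' DESeq2 fold changes and p-values were not used.

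The deposited counts were analyzed with edgeR 4.0.16 (limma 3.58.1, R 4.3.3): filterByExpr, TMM normalization, 1 model with a mean for each of 5 groups, robust quasi-likelihood F tests and Benjamini-Hochberg adjustment over 16522 genes, with a threshold of 0.05. CPM are after TMM. Log2 fold changes used a prior count of 0.125. On counts simulated for 12 h against control, with 2-fold changes among 16073 genes, 158 of 194 changed genes and 15 unchanged genes were called. The changed genes were few and balanced between higher and lower, whereas 69.4% of genes were called at 12 h in the data. The simulation therefore did not test the scaling under so broad a response. DESeq2 1.42.0 was an alternative.

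The AP-1 genes and the lists were chosen with earlier results of these data known. Named are the 8 AP-1 genes and, from each list, at most the 3 genes with the largest change among those called, with a mean of at least 1 CPM over all libraries and EGF libraries all on 1 side of the controls, plus the 2 genes nearest in pattern to each AP-1 gene; 1 gene that this rule names is not reported here. Cells were labelled biological replicates, and pairs of replicates varied 3.53 to 57.5 times more than sampling noise (30 pairs). Replicate numbers were not used to pair samples across groups in the main model. Between libraries of the same number, 40 correlations of deviations had a median of 0.0092, with 5 above 0.1 and a range of -0.239 to 0.348. The highest were 0.328 and 0.348, between control and EGF 48 h in replicates 2 and 3. Alternatives were other scalings, filters, samples, a replicate block, a larger prior count (2), and each library left out in turn.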

Additional observations from a re-analysis of the deposited data

Results flagged for a closer look

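In 4 of 40 groups of 4 libraries, a library stood apart by Dixon's ratio, where chance gives about 1 in 20. The 40 groups reuse the same 20 libraries for the 8 genes and are not independent, so this rate is only a guide. EGF 24 h replicate 1 was the lowest of its group in every gene but ATF3. EGF 72 h replicate 1 was the highest of its group in every gene but FOSL2, and control replicate 2 in every gene but JUND and ATF3. The cause was not tested. FOSB in control replicate 2 was 1.81 CPM, with 1.01 to 1.11 CPM in the others, and in EGF 24 h replicate 1 it was 3.31 CPM, with 4.35 to 4.54 CPM in the others. FOSL1 in EGF 72 h replicate 1 was 119 CPM, with 82.9 to 88.3 CPM in the others. JUND in EGF 72 h replicate 2 was 81.5 CPM, with 101 to 104 CPM in the others.

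The response to EGF differed between consecutive times in 14 of 24 tests, as described above. Of all genes, 53.7, 50.2 and 35.7% were called at the steps to 24, 48 and 72 h, so the count is read against that broad response. From 12 to 24 h these were FOSL1 (-1.60), JUNB (-1.37), JUND (-0.85), JUN (-0.56) and FOSL2 (-0.29). From 24 to 48 h they were FOSL1 (-1.68), FOS (-1.31), FOSB (-0.93) and ATF3 (0.47). From 48 to 72 h they were FOSB (2.10), FOSL1 (1.87), FOS (1.41), ATF3 (0.97) and JUN (0.87), all as log2 differences.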

How the results depend on the processing

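With factors per gene from the deposited normalized values, the number of AP-1 genes called at 48 h against control was 3 in place of 5. In the other planned settings, the numbers called stayed within 1.5 times. Leaving out each library gave 5 to 6 genes called at 12 h, 5 to 7 at 24 h, 4 to 7 at 48 h and 7 at 72 h against control. Between consecutive times it gave 5, 4 to 5 and 5 to 6. With the replicate block, 7 genes were called at 24 h, since JUNB passed (0.41, adjusted p = 0.0386), as it did in the DESeq2 Wald test (adjusted p = 0.0392). The block changed no other call of an AP-1 gene.

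All values that changed sign were small, with only 1 past the threshold in the alternative. With library size alone, these were ATF3 at 12 h (-0.27, adjusted p = 0.00553) and 24 h (-0.043) and JUN at 12 h (-0.11) against control, FOSB from 12 to 24 h (0.043), FOSL2 and JUNB from 24 to 48 h (0.0998 and 0.10) and FOS from 12 to 72 h (0.15). With upper quartiles, they were ATF3 at 12 h (-0.15), FOSB from 12 to 24 h (0.016), FOSL2 and JUNB from 24 to 48 h (0.0099 and 0.016) and FOS from 12 to 72 h (0.081). With at least 10 counts in every library, they were ATF3 at 12 h (-0.023) and FOS from 12 to 72 h (0.036), and with factors per gene, ATF3 from 12 to 24 h (-0.074). Library size moved the median of all genes by -0.284 at 12 h and -0.143 at 24 h against control. Upper quartiles moved it by -0.162 at 12 h. DESeq2's size factors and a prior count of 2 changed no call of an AP-1 gene. The causes were not tested.

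Leaving out 1 library turned the sign of ATF3 at 12 h (-0.021 without control replicate 4, -0.0054 without EGF 12 h replicate 3, range up to 0.057), FOSB from 12 to 24 h (0.056 without EGF 12 h replicate 1, range down to -0.21), FOS from 12 to 24 h (0.0036 without EGF 24 h replicate 1, range down to -0.31) and JUNB from 24 to 48 h (0.026 without EGF 24 h replicate 2, 0.032 without EGF 48 h replicate 3, range down to -0.17). It did so too for FOS from 12 to 72 h (0.038 without EGF 72 h replicate 4, range down to -0.16), and for FOS and FOSL1 from 24 to 72 h (-0.066 and -0.019 without EGF 24 h replicate 1, ranges up to 0.25 and 0.29). FOS and FOSB had few counts, so small changes in them could not be resolved.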
